A study of Xenopus tropicalis with 30 samples.

Results

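The ends of mitochondrial transcripts were described in whole adult *Xenopus tropicalis*, the western clawed frog, from 2 tables of site counts. Every row on the mitochondrial sequence was taken, with no choice by level: 45 of the 69857 transcription start sites and 43 of the 98277 poly(A) sites. Start sites were counted by WTSS-seq, which reads 5′ ends from total RNA after rRNA depletion, in 6 males and 6 females. Poly(A) sites were counted by WTTS-seq, which reads 3′ ends from fragmented poly(A)+ RNA, in the same 6 males and 6 females per the series design. A pool of 3 adult females gave 1 CAGE library, made by a commercial service, and 2 repeat WTSS-seq libraries, which are technical repeats of that RNA. No treatment, strain, genotype or age beyond adult is given. Whole bodies were extracted in Trizol, so each value mixes all tissues, the gonads included. Tissue markers could not be checked, because the tables name no genes.

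The mitochondrial genome of vertebrates is a small circle that encodes subunits of the respiratory chain and the RNAs needed to translate them. Both strands are transcribed into long RNAs that span many genes, which are then cut, largely at the tRNAs that separate the genes, and most of the messages gain a poly(A) tail. The 5′ end of a mature mitochondrial RNA can therefore be a cut end as well as a start of transcription, and in mammals these RNAs lack the cap of nuclear mRNA that CAGE captures. The 13 protein genes in the RefSeq table for UCB_Xtro_10.0 run in the order ND1, ND2, COX1, COX2, ATP8, ATP6, COX3, ND3, ND4L, ND4, ND5, ND6 and CYTB. The ND genes encode subunits of complex I, CYTB a subunit of complex III, the COX genes subunits of complex IV and the ATP genes subunits of the ATP synthase. In vertebrates the ribosomal RNA genes lie ahead of ND1, and ND6 is the protein gene on the strand opposite to the others. The site tables do not state that assembly, so no site was assigned to a gene, exon or UTR, and sites are called by position and strand, counted from 1 on the mitochondrial sequence as the tables give it.

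Start sites lay on both strands and poly(A) sites mostly on the minus strand, while the poly(A) counts lay almost wholly on the plus strand. Of the 45 start sites, 20 were on the plus strand, at positions 298 to 17096, and 25 on the minus strand, at 639 to 17256. Of the 43 poly(A) sites, 3 were on the plus strand and 40 on the minus strand. Mitochondrial clusters were wider than those elsewhere: the median cluster of start sites spanned 408 bases, against 103 bases in the rest of the table, and that of poly(A) sites 135 bases against 53. Clusters over 1000 bases made up 15.6% of mitochondrial start sites and 0.163% of the rest, and 6.98% of mitochondrial poly(A) sites against 0.203% of the rest. The plus-strand poly(A) clusters joined most of the sequence into few rows. The cluster with its position at 1237 ran over bases 33 to 8845, the cluster at 9187 over 9094 to 9243, and the cluster at 14261 over 10097 to 18008. The 3′ ends of single genes were thus not resolved on that strand. Start clusters of opposite strands overlapped: the position of 12 of the 20 plus-strand and 22 of the 25 minus-strand start sites fell inside a cluster of the other strand. Plus-strand start clusters covered 13906 bases and minus-strand ones 10658, on a sequence with clusters up to base 18008. Most positions would therefore fall inside an opposite cluster wherever they lay, and an excess over that was not tested. How strand was read from the libraries is not stated in the labels, so strands are given as the tables have them, and spill of counts between overlapping opposite clusters was not tested.

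Some start and poly(A) positions nearly coincided. For 7 of the 43 poly(A) sites (16.3%) a start site lay within 10 bases on the same strand, against 0.581% of the poly(A) sites elsewhere. Sites are denser on the mitochondrial sequence, and this difference was not tested. The pair at 14261 (poly(A)) and 14258 (start) was on the plus strand, where the poly(A) position stands for a cluster of 7912 bases. The 6 pairs on the minus strand had the poly(A) site at 3019, 3828, 6318, 6574, 14721 and 15929. In that order these held 1, 1215, 68, 7, 7 and 153 counts over the 12 individual libraries, and 63 of the 68 came from female 6. Opposite strands shared exact positions as well: a minus-strand poly(A) site and a plus-strand start site both lay at 6785, and plus- and minus-strand start sites both lay at 13402. At 13402 the minus-strand site had at most 9.14 CPM in any animal, whereas the plus-strand site had at least 180 CPM in every animal.

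Counts were concentrated in few sites. Over the 12 individual libraries the highest start site held 19.1% of the mitochondrial start counts, the 5 highest 68.5% and the 10 highest 92.5%. Among poly(A) sites, 1237 plus alone held 86.0% and the 2 highest 96.4%. The counts behind these shares were 583276 in males and 153277 in females for start sites, and 584397 in males and 138382 in females for poly(A) sites. Totals ranged over 1866839 to 6643184 counts in individual WTSS-seq libraries and over 2304469 to 6624765 in WTTS-seq libraries, and 1935959, 2641136 and 9227896 counts in the pool libraries. The 3 male WTSS-seq columns headed Male3, Male4 and Male4 could not be tied to single animals, since the labels list males 2, 3 and 4, and they were used as males without a number. Each pair of male start libraries differed beyond counting noise, with a chi-square per degree of freedom of at least 27.5, so no pair was treated as a repeated deposit of the same library. This does not show that the columns are separate animals, and counting 6 males there follows the labels alone. Without the Male3 column or without the second Male4 column, 22 of 26 tested start sites were called higher in males. Over all start sites it was 5521 of 17900 and 5272 of 17160.

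Mitochondrial ends took a larger part of male than of female libraries in both assays. In WTSS-seq the mitochondrial share of all counts was 2.46% ± 0.809 in males (lowest 1.49%, median 2.38%, highest 3.93%) and 0.746% ± 0.409 in females (0.391%, 0.558%, 1.45%; SD, n = 6 each). In WTTS-seq it was 2.61% ± 0.460 in males (1.94%, 2.62%, 3.32%) and 0.611% ± 0.283 in females (0.315%, 0.555%, 1.14%; SD, n = 6 each). Every male lay above every female in each assay, though in WTSS-seq male 1 (1.49%) was barely above female 4 (1.45%). Without the start site with the most counts, 7113 plus, male 1 had 1.16% and lay below female 4, with 1.42%. These are bulk libraries of whole animals, in which fewer cells of a type and less RNA per cell cannot be told apart, and a larger mitochondrial share is also a smaller nuclear share. On the TMM scale, which compares sites with the bulk of all sites, the mitochondrial start sites summed to 33046 ± 15492 CPM in males and 6508 ± 3415 CPM in females. Their poly(A) sites summed to 43762 ± 8109 CPM in males and 4216 ± 1770 CPM in females (SD, n = 6 each). The TMM factors lay between 0.543 and 0.787 in male and between 1.41 and 1.72 in female WTTS-seq libraries, so that scale widens the gap between the sexes there. In WTSS-seq they lay between 0.660 and 0.868 in males and between 1.28 and 1.63 in 5 females, while female 3 had 0.528, which raises its CPM relative to its share.

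**Figure D1:**
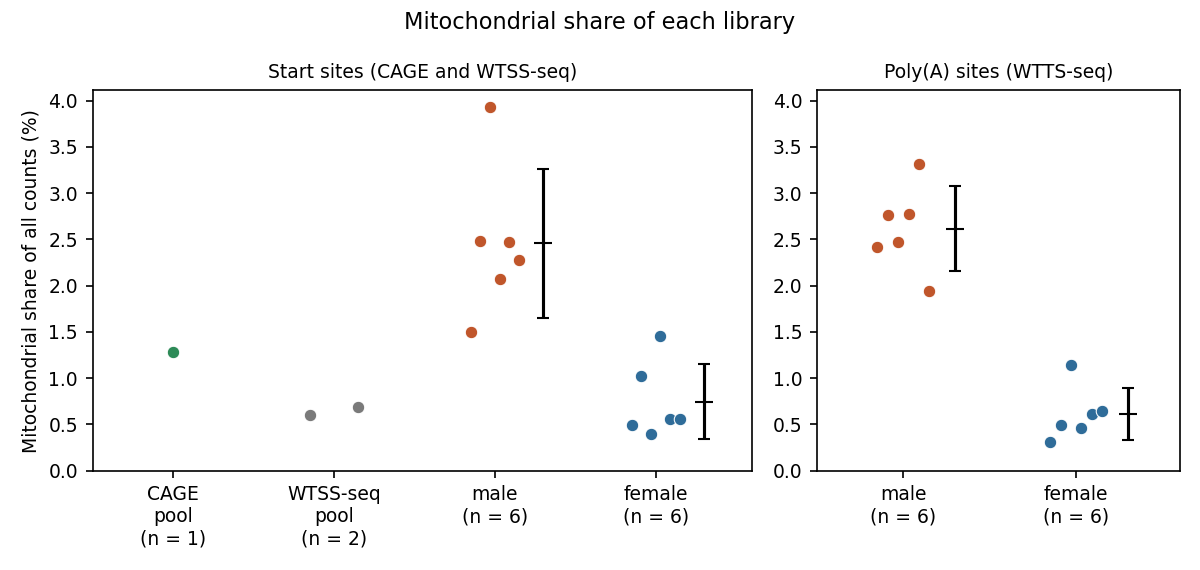
Mitochondrial share of all counts (%) in each library, with start sites on the left and poly(A) sites on the right, on the same scale. Points are libraries, the 2 WTSS-seq pool points are technical repeats, and bars are mean ± SD of 6 animals; every male lies above every female, and the CAGE library, at 1.28%, lies above both pool repeats.

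The sex difference of the mitochondrial share did not differ detectably between start and poly(A) counts. Of the animals, 3 males and 6 females had columns that could be tied to them in both assays. The ratio of poly(A) share to start share in the same animal was 0.851, 1.34 and 1.62 in the males, and ran over 0.317 to 2.91 in the females. The female ratios enclosed all 3 male ratios. On the log2 scale the ratio averaged 0.29 ± 0.48 in males and −0.24 ± 1.12 in females, a difference of 0.54 (exact two-sided permutation p = 0.452; the smallest p this design allows is 0.0119).

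At the level of single start sites, 22 of the 26 that passed the count filter were higher in males and 0 were lower (edgeR quasi-likelihood test, adjusted over all 15050 start sites tested). That is 84.6% of the mitochondrial sites tested, while over all start sites tested 70.4% passed, 33.6% higher and 36.9% lower in males. Their median log2 fold change, male over female, was 3.44, against −0.19 over all sites tested, and the called sites ranged over 2.01 to 4.78. On the plus strand 9 of 11 tested sites were higher, with a median of 4.13, and on the minus strand 13 of 15, with a median of 3.12. At 18 of the 26 sites (69.2%) every male lay above every female, which held for 26% of all start sites tested. The remaining 19 start sites were too low for the filter. They held 23 to 207 counts each over the 12 individual libraries, summing to 1117 counts in males and 192 in females, and 18 of them had more male than female counts. The filter can admit a low site on 1 sex alone: 6117 minus passed with 30 female counts, 20 of them from female 5, against 164 male counts. With no filter, 37 of the 45 start sites were higher in males and 0 lower. Over all start sites it was 17635 higher and 17450 lower of 68779. With library totals alone the median log2 fold change of the 26 tested sites was 2.65, against −0.85 over all sites tested.

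The plus-strand site at 7113 (cluster 7029 to 8487) was the highest mitochondrial start site in 4 of the 6 males. It had 4089, 7168 and 8144 CPM (lowest, median, highest) in males and 192, 260 and 609 CPM in females. Every male lay far above every female, with a log2 fold change of 4.31 ± 0.38 (SE; edgeR adjusted p = 1.18e-07). The site at 14955 (14507 to 15295) had 1469, 3950 and 4363 CPM in males and 80.4, 154 and 306 CPM in females. Here too the sexes were wide apart (log2 fold change 4.39 ± 0.42, edgeR adjusted p = 2.41e-07). The site at 13402 (11859 to 14077) had the highest mean CPM over the 12 animals, with 1567, 4475 and 26001 CPM in males and 180, 418 and 1497 CPM in females. The groups did not overlap, the lowest male lying just above the highest female (log2 fold change 3.50 ± 0.73, edgeR adjusted p = 0.000463). Its male maximum came from the first library headed Male4. Without that library the male mean was 3589 CPM, below the 6398 CPM of 7113, and the log2 fold change was 2.65 (edgeR adjusted p = 0.000595). Further upstream, 6785 (5361 to 6975) had 804, 1976 and 2729 CPM in males and 40.9, 77.4 and 213 CPM in females (log2 fold change 4.28 ± 0.49, edgeR adjusted p = 1.14e-06). The site at 3438 (2700 to 3713) had 600, 1607 and 2082 CPM in males and 31.9, 60.1 and 345 CPM in females (3.65 ± 0.58, edgeR adjusted p = 3.35e-05). At neither site did a female reach the lowest male, and without female 5 the log2 fold change at 3438 was 4.30. The largest log2 fold change among the tested start sites was at 11276 (9886 to 11595), 4.78 ± 0.66, with 647, 1402 and 4028 CPM in males and 23.4, 44.5 and 218 CPM in females (edgeR adjusted p = 7.27e-06). Without female 5, which had the highest female level, it was 5.49.

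Among minus-strand sites that differed by sex, 13880 (13605 to 14602) was the highest, with 466, 913 and 2393 CPM in males and 52.5, 126 and 256 CPM in females. Males and females did not overlap there (log2 fold change 3.12 ± 0.46, edgeR adjusted p = 1.52e-05). The site at 10457 (10259 to 10930) had 28.4, 358 and 680 CPM in males and 4.97, 12.6 and 35.6 CPM in females, and the lowest male fell within the female range (log2 fold change 4.39 ± 0.74, edgeR adjusted p = 5.59e-05).

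The 4 tested start sites that did not pass the threshold were the 4 with the lowest positions among those tested, at 298 and 1598 on the plus strand and at 639 and 1487 on the minus strand. Each of the 22 tested sites from 3029 onward passed it. At 298 (cluster 1 to 967) males had 442, 666 and 2448 CPM and females 253, 543 and 3007 CPM, so the ranges coincided (log2 fold change −0.04 ± 0.57, edgeR adjusted p = 0.950). At 1598 (1021 to 2583) males had 732, 1400 and 1682 CPM and females 445, 799 and 2659 CPM, with the highest value in female 3 (0.41 ± 0.42, edgeR adjusted p = 0.397). Without female 3 the site passed the threshold, with a log2 fold change of 1.05 (edgeR adjusted p = 0.00505). On the minus strand, 1487 (1294 to 2070) had 270, 3551 and 9265 CPM in males and 352, 2280 and 5343 CPM in females (0.59 ± 0.74, edgeR adjusted p = 0.488). The spread within each sex exceeded the gap between the sexes there. The log2 fold change was −0.13 with libraries scaled by their totals alone, and 2.15, past the threshold, in the 3 males and 3 females numbered 1, 5 and 6 (edgeR adjusted p = 0.0107). The low site at 639 (608 to 1015) had 17.7, 27.9 and 620 CPM in males and 12.8, 66.5 and 540 CPM in females (0.04 ± 0.97, edgeR adjusted p = 0.975). Its direction was not fixed: without the first library headed Male4 the log2 fold change was −1.57, and without female 4 it was 1.38. At 298 it was 0.66 without female 4. These p-values do not show that the sexes were alike at the 4 sites. Whether their fold changes differ from those of the other sites was not tested. The shares given next come from the same counts, and a site with a flat level loses share where the mitochondrial total is higher.

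**Figure D2:**
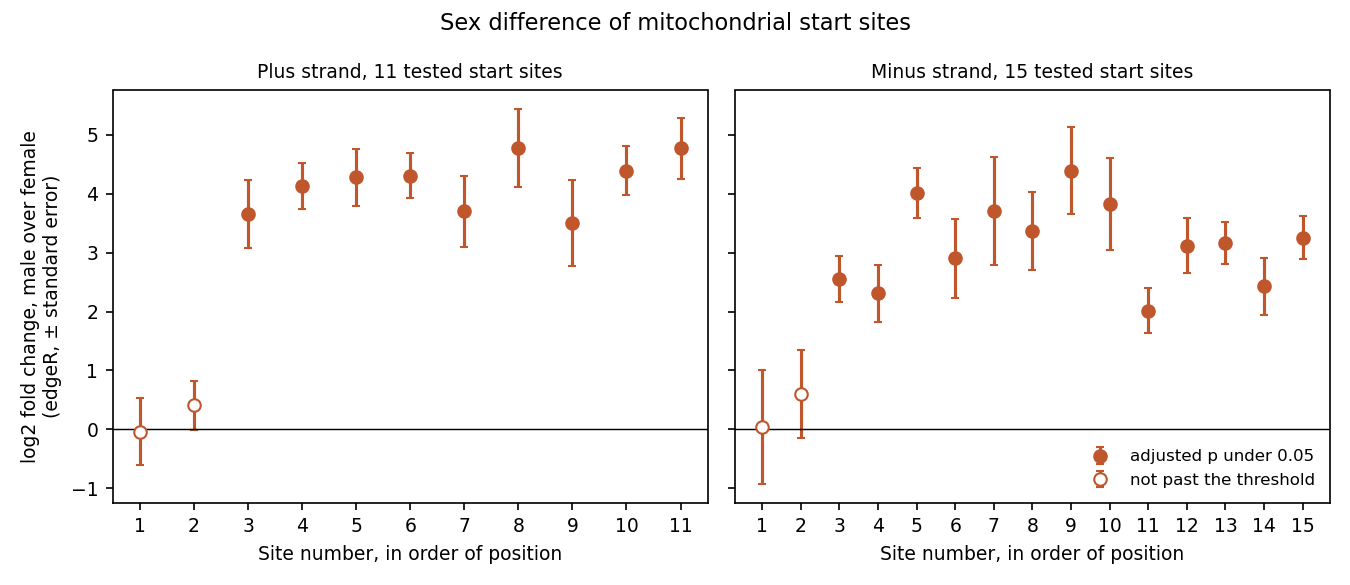
Log2 fold change, male over female, of each tested mitochondrial start site (y axis, ± SE, edgeR, 6 males and 6 females) in order of position (x axis), with the plus strand on the left and the minus strand on the right. Filled points passed the threshold and open points did not; the open points are the first 2 tested sites of each strand, and all other points lie between 2.01 and 4.78.

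The distribution of the counts among mitochondrial start sites differed between the sexes. Each site's share of the library's mitochondrial counts does not depend on the nuclear counts. It was compared by exact two-sided permutation tests at the 24 start sites with a mean of 20 or more counts, and 10 of them (41.7%) passed at 0.05 after adjustment over these sites, 3 with a lower share in males (12.5%) and 7 with a higher one (29.2%). Shares of a total are not independent of each other. The 3 sites with a lower share in males were among the 4 whose levels had not passed, and both results rest on the same counts. At 298 plus the share averaged 2.63% in males (1.94% to 3.87%) and 12.9% in females (5.97% to 24.6%), and at 1598 plus it averaged 4.43% in males (2.49% to 6.58%) and 16.3% in females (7.92% to 33.4%; range, n = 6 each; exact permutation p = 0.00216 at both, the smallest that 6 against 6 allows). Every male lay below every female at both. At 1487 minus the share was 11.8% ± 9.25 in males and 39.2% ± 16.3 in females, with overlap between the sexes (exact permutation p = 0.0108). The share at 639 minus was 0.278% ± 0.355 in males and 1.67% ± 1.56 in females, with an unadjusted exact permutation p of 0.0325 that did not pass after adjustment. It did pass as a log2 ratio of the site to all other mitochondrial counts, and with female 2, female 3 or female 5 left out.

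Of the 7 sites with a higher share in males, 6 were on the plus strand. The site at 7113 held 21.9% ± 5.37 of male and 6.39% ± 4.35 of female mitochondrial start counts (exact permutation p = 0.00433). At 14955 the share was 11.4% ± 3.50 in males and 3.11% ± 2.16 in females (exact permutation p = 0.00433), and at 6785 it was 6.50% ± 2.85 in males and 1.88% ± 1.64 in females (exact permutation p = 0.00649). Male shares were likewise higher at 4468, with 3.81% ± 1.12 in males and 1.37% ± 0.849 in females (exact permutation p = 0.00216). The 3 further sites were low. At 8879 plus the share was 0.413% in males and 0.167% in females (exact permutation p = 0.00866), at 15786 plus it was 0.135% in males and 0.0283% in females, and at 5078 minus it was 0.465% in males and 0.149% in females (exact permutation p = 0.00216 at both). The site at 15786 reached the mean of 20 counts only through the males, with 824 male counts against 42 female counts. Its female share thus rests on few reads, and its pass is weak support. Some sites whose levels were higher in males kept a share that did not pass the threshold: 13402 plus held 18.1% ± 12.7 in males and 9.48% ± 4.30 in females (exact permutation p = 0.128), and 13880 minus held 3.89% ± 2.24 in males and 2.22% ± 0.865 in females (exact permutation p = 0.0974). At 11276 plus, which held 6.49% ± 4.75 in males and 1.43% ± 1.87 in females, the exact permutation p of 0.0238 just missed the threshold after adjustment. That site passed as a log2 ratio, with the highest mitochondrial site left out of the total, and with female 5, male 1, male 6 or the first library headed Male4 left out. Without female 5, in all, 14 sites passed.

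**Figure D3:**
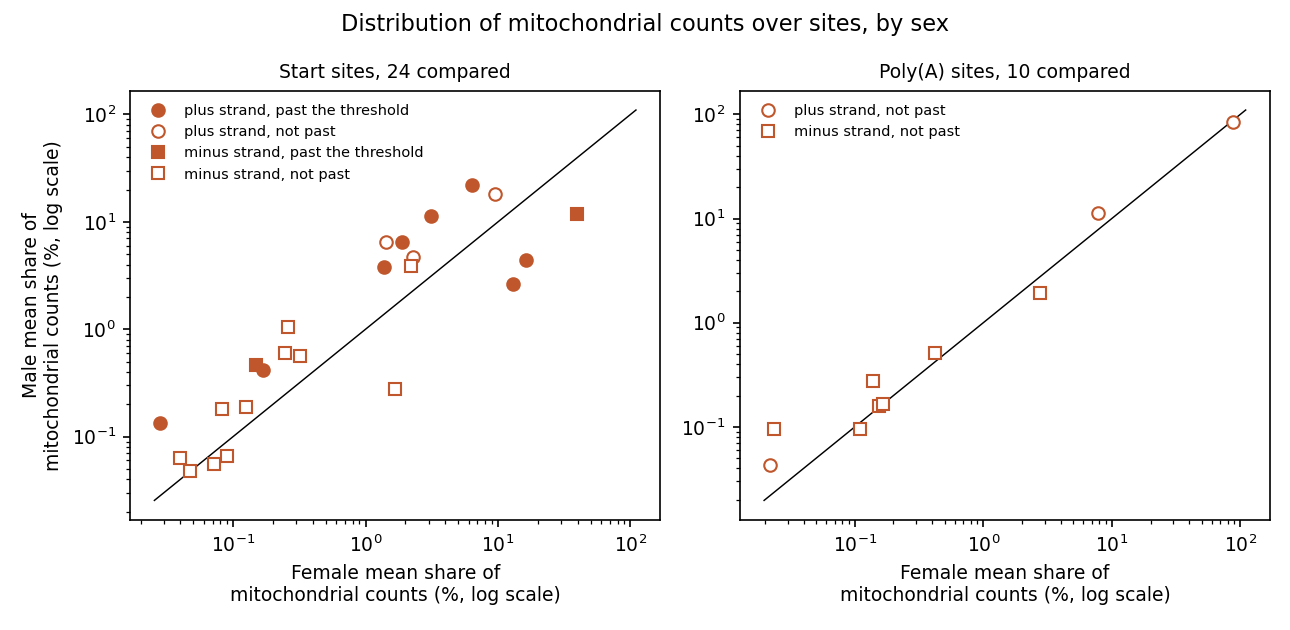
Mean share of mitochondrial counts held by each site in males (y axis, %) and in females (x axis, %), both on log scales, for 24 start sites on the left and 10 poly(A) sites on the right. Points above the diagonal have a higher share in males; filled points, 10 start sites and 0 poly(A) sites, passed at 0.05 after adjustment over the sites of their panel.

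The minus strand held a smaller part of the male than of the female mitochondrial start counts. Its share was 19.4% ± 9.52 in males (lowest 6.61%, median 19.5%, highest 30.5%) and 44.6% ± 16.5 in females (14.0%, 50.6%, 58.5%; SD, n = 6 each). The groups overlapped through female 5, the lowest female, and the difference was −25.2 percentage points (exact two-sided permutation p = 0.0130). It rested on 1487 minus: without that site the minus strand held 8.71% ± 2.39 in males and 9.47% ± 3.15 in females, a difference of −0.77 percentage points (exact permutation p = 0.632). In CPM, minus-strand start sites summed to 6427 ± 4266 in males and 3001 ± 2017 in females, and plus-strand start sites to 26620 ± 12312 in males and 3507 ± 1744 in females (SD, n = 6 each).

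The site at 1487 minus lies within the span of the plus-strand cluster at 1598, and the counts of the pair varied widely from library to library. The ratio of 1487 minus to 1598 plus was 4.89, 0.229, 5.89, 0.161, 2.58 and 5.29 in the males, where 0.229 and 0.161 belong to the Male3 column and the second Male4 column. It was 3.60, 6.31, 1.05, 5.53, 0.366 and 3.99 in females 1 to 6. In 4 males and 5 females the minus-strand site held more counts than the plus-strand site, by little in female 3, and in 2 males and female 5 it held fewer. The site at 1487 minus was the highest mitochondrial start site in 5 of the 6 females and in male 6, while 1598 plus was the highest in female 5. Put as the part of the counts that would have to be moved to make 2 libraries alike, site use differed by 8.41% to 52.2% between males (median 26.4%) and by 8.66% to 56.8% between females (median 26.6%). The 8.41% was between the Male3 column and the second Male4 column.

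**Figure D4:**
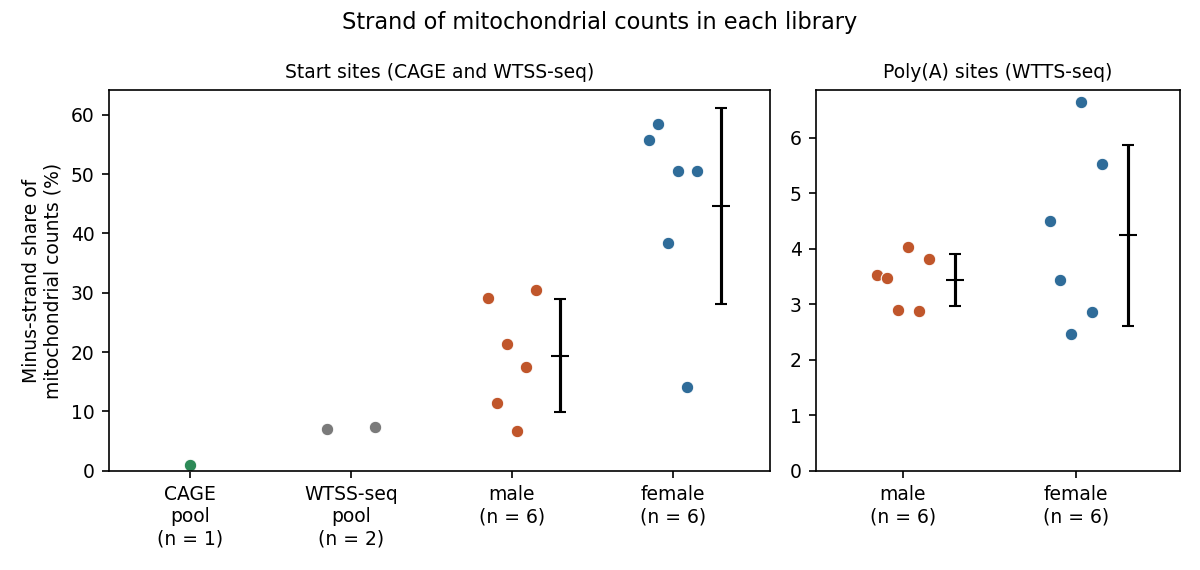
Minus-strand share of mitochondrial counts (%) in each library, with start sites on the left and poly(A) sites on the right; the panels have different scales. Points are libraries and bars are mean ± SD of 6 animals; among start sites the males run over 6.61% to 30.5% and the females over 14.0% to 58.5%, and the CAGE library, at 0.955%, and both pool repeats lie below every individual female.

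Poly(A) sites were higher in males as well. Of the 13 that passed the count filter, 12 were higher in males and 0 were lower (edgeR, adjusted over all 16429 poly(A) sites tested). That is 92.3% of those tested. Over all poly(A) sites tested 50.8% passed, 25.8% higher and 24.9% lower in males. The median log2 fold change was 3.48, against −0.29 over all sites tested, and the called sites ranged over 2.51 to 5.31. With library totals alone the median was 2.22, against −1.54 over all sites tested. At 10 of the 13 (76.9%) every male lay above every female, which held for 17.5% of all poly(A) sites tested. The other 30 poly(A) sites held 1 to 208 counts each over the 12 libraries, summing to 834 counts in males and 366 in females. Of these, 19 had more male than female counts and 10 had fewer. Here too the filter can admit a low site on 1 sex alone: 9187 plus passed with counts in 2 of the 6 females. With no filter, 21 of the 43 poly(A) sites were higher in males and 0 lower. Over all poly(A) sites it was 15342 higher and 15184 lower of 98277.

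The wide plus-strand cluster at 1237 had 26128, 37872 and 45511 CPM (lowest, median, highest) in males and 2074, 3328 and 6849 CPM in females. The lowest male was well above the highest female (log2 fold change 3.33 ± 0.30, edgeR adjusted p = 9.27e-07). The cluster at 14261 plus had 3390, 4365 and 7093 CPM in males and 221, 280 and 571 CPM in females, again far apart (3.92 ± 0.33, edgeR adjusted p = 4.46e-07). Far lower was 9187 plus, with 10.3, 15.2 and 33.1 CPM in males and 0, 0 and 6.71 CPM in females (3.81 ± 1.29, edgeR adjusted p = 0.0225). Of its female counts 24 came from female 3 and 5 from female 4, and without female 3 the log2 fold change was 5.97. The site did not pass when libraries were scaled by their totals alone (2.47, edgeR adjusted p = 0.0991).

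On the minus strand the highest poly(A) site was 17064 (16415 to 17492), with 549, 840 and 1158 CPM in males and 78.1, 106 and 146 CPM in females. No female reached the lowest male (log2 fold change 2.95 ± 0.30, edgeR adjusted p = 2.42e-06). The next was 6952 (6942 to 6962), with 108, 199 and 320 CPM in males and 7.83, 13.2 and 23.9 CPM in females (3.74 ± 0.41, edgeR adjusted p = 5.65e-06), followed by 5395 (5205 to 5874), with 67.9, 121 and 151 CPM in males and 1.10, 6.37 and 10.6 CPM in females (4.25 ± 0.52, edgeR adjusted p = 1.31e-05). At both the sexes were apart. The lower sites at 3828, 13837, 14185 and 15498 were also higher in males, with every male above every female. Their log2 fold changes were 3.48 ± 0.59, 3.29 ± 0.97, 5.31 ± 0.94 and 3.43 ± 0.49. At 14185 the females held 29 counts in all and at most 2.80 CPM, so that fold change rests on values near the floor. Called as well, but with overlap between the sexes, were 4717 (2.51 ± 0.86) and 13643 (4.22 ± 1.31). At 13643 the females held 14 counts in all, 11 of them from female 4, so that fold change also rests on values near the floor. At 13837 the call was lost with library totals alone (1.96, edgeR adjusted p = 0.0822), and the log2 fold change was 2.57 without male 1. The single tested site that did not pass, 2736 minus, had 4.19, 10.6 and 18.7 CPM in males and 0, 0.778 and 6.31 CPM in females (2.36 ± 1.19, edgeR adjusted p = 0.110).

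Shares of the mitochondrial poly(A) counts passed after adjustment at 0 of the 10 sites compared (0%) by exact permutation tests, of which 4 had an unadjusted p under 0.05. The cluster at 1237 plus held 85.3% ± 3.05 in males and 87.9% ± 2.17 in females (exact permutation p = 0.128). The cluster at 14261 plus held 11.2% ± 2.87 in males and 7.79% ± 1.58 in females (exact permutation p = 0.0325 before adjustment), and 17064 minus held 1.92% ± 0.218 in males and 2.76% ± 0.790 in females (exact permutation p = 0.0390 before adjustment). The other such sites were 5395 minus (exact permutation p = 0.0216) and 14185 minus (exact permutation p = 0.0195), both with a higher mean share in males. With 1237 plus left out of the total, the share at 17064 minus did pass. It was then lower in males, by a difference of −8.93 percentage points (exact permutation test, adjusted p = 0.0390). The minus strand held 3.44% ± 0.471 of male and 4.24% ± 1.62 of female mitochondrial poly(A) counts (exact permutation p = 0.290; SD, n = 6 each). Poly(A) site use differed by 1.06% to 7.24% between males and by 0.548% to 5.58% between females, with most counts in a single wide cluster in every library.

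CAGE and WTSS-seq of the same pool of 3 females placed the mitochondrial counts differently. The 2 WTSS-seq repeats, however, differed from each other about as much, by 43.8% of the counts, against 31.1% and 55.1% between CAGE and repeats 1 and 2. There is 1 CAGE library, so the values have no replicate check, and the intervals below are 95% Wilson intervals that cover counting error only. Mitochondrial sites took 1.28% of the CAGE counts (1.26% to 1.29%), and 0.601% (0.590% to 0.612%) and 0.689% (0.684% to 0.694%) of the counts of the WTSS-seq repeats. Much of the CAGE share came from 1598 plus. Without that site mitochondrial sites took 0.452% of the CAGE counts, between the 0.353% and 0.623% of WTSS-seq repeats 1 and 2. The minus strand held 0.955% (0.856% to 1.06%) of the mitochondrial CAGE counts, and 7.04% (6.59% to 7.52%) and 7.44% (7.24% to 7.65%) of those of the WTSS-seq repeats.

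The sites at 298 and 1598 on the plus strand together held 89.6% of the mitochondrial CAGE counts, and 58.7% and 37.2% of the counts of WTSS-seq repeats 1 and 2. The site at 1598 took 64.6% in CAGE (64.1% to 65.1%), and 41.2% and 9.60% in the WTSS-seq repeats. At 298 the CAGE share was 24.96%, which lay between those of the WTSS-seq repeats, 17.5% and 27.6%. Per 1000000 counts of the whole library, however, 298 held 3188 in CAGE, above the 1049 and 1901 of repeats 1 and 2. The next sites in CAGE were 7113, 11276 and 13402, all on the plus strand. At 7113 the share was 2.45% in CAGE and 6.32% and 35.3% in the WTSS-seq repeats. At 11276 it was 1.67% in CAGE and 5.56% and 1.87% in the repeats, and at 13402 it was 1.55% in CAGE and 3.40% and 4.64% in the repeats. Each of these 3 shares was lower in CAGE than in either repeat. At 11276, however, the CAGE interval (1.54% to 1.81%) overlapped that of repeat 2 (1.77% to 1.98%). All 3 are shares of the mitochondrial counts, of which 1598 took 64.6% in CAGE. Per 1000000 counts of the whole library, 11276 held 213 in CAGE, between the 334 of repeat 1 and the 129 of repeat 2. On that scale 13402 held 198 in CAGE, and 204 and 319 in the repeats. The site at 7113 held 313 in CAGE, and 380 and 2435 in the repeats.

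Several sites were nearly empty in CAGE. The site at 1487 minus had 1 CAGE count, against 150 and 849 counts in the WTSS-seq repeats. The site at 8879 plus had 0 CAGE counts, which allows a share of up to 0.00889% of the mitochondrial counts, against 63 and 222 counts in the repeats. The other way round, 14258 plus had 33 CAGE counts and 1 count in each repeat; it is the start site that lies 3 bases from the poly(A) position at 14261. Of the 45 start sites, 19 had no count in CAGE, and 15 and 10 had none in the WTSS-seq repeats. The minus-strand site at 13880 held 0.365% of the mitochondrial counts in CAGE, and 3.99% and 3.75% in the repeats.

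The WTSS-seq repeats differed about as much from each other as from CAGE. Site use differed by 31.1% of the counts between CAGE and repeat 1, by 55.1% between CAGE and repeat 2, and by 43.8% between the 2 repeats. The repeats come from the same RNA per the series design, and their difference lies within the 8.66% to 56.8% seen between individual females. The low minus-strand share in CAGE lay below both repeats. Both repeats in turn, at 7.04% and 7.44%, lay below all 6 individual females, of which the lowest had 14.0%. The ratio of 1487 minus to 1598 plus was 0.0313 and 0.139 in the repeats, below the 0.366 of the lowest individual female. Which of the females entered the pool is not given in the sources used here.

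**Figure D5:**
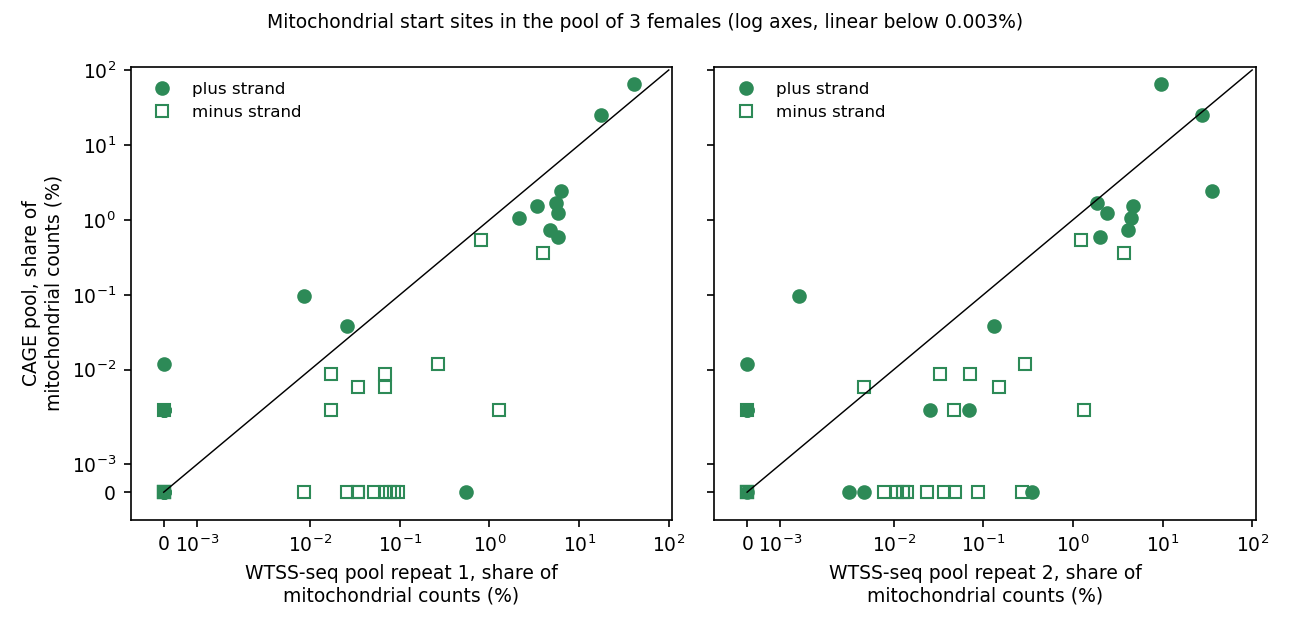
Share of mitochondrial start counts (%) held by each of the 45 sites in the CAGE library (y axis) and in WTSS-seq repeat 1 (left) or repeat 2 (right) of the same pool (x axis), on log axes that are linear below 0.003%. Filled circles are plus-strand and open squares minus-strand sites; most minus-strand sites lie below the diagonal, and the highest CAGE site, 1598 plus, holds 64.6% in CAGE and 41.2% and 9.60% in the repeats.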

How the data were processed

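The members and the choice of tests were made with earlier results of these data known. Both tables hold read counts as whole numbers, as the authors deposited them, with a row for each cluster of ends, a column for each library and a total that is at least 25. Libraries were amplified by PCR per the labels' protocols. For the read aligner, the method that formed clusters and the genome build, nothing is stated: not given in the sources used here. Of the 30 libraries labelled, 27 were used and 3 were not used here. There were 0 columns of other libraries. Positions were shifted by 1 to count from 1.

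Counts were tested between 6 males and 6 females in edgeR 4.0.16 under R 4.3.3 (quasi-likelihood F test), with TMM scaling, filterByExpr by sex and Benjamini-Hochberg adjustment over all sites of a table, at 0.05. CPM are counts per 1000000 on the TMM scale, and the SE is the log2 fold change divided by the square root of F. Shares were compared by exact two-sided permutation tests over the 924 splits of 6 against 6, whose smallest p is 0.00216. On simulated counts the edgeR fit recovered 83.0% of 200 start sites changed 4-fold among 18195 tested, with 4 false calls, and 90.0% of 200 such poly(A) sites among 22151 tested, with 9. Few sites were changed in the simulation, whereas 70.4% of start sites and 50.8% of poly(A) sites tested passed in the animals. Recovery and false calls where so many sites differ were not tested, so these figures do not carry over to the comparison of the sexes. The labels name a separate animal for each replicate, so p-values are taken to measure the spread between animals. For the male start libraries this rests on the labels alone, since the columns headed Male3, Male4 and Male4 could not be tied to single animals. Wilson intervals at 95% and the limit of a count of 0 (3 counts) cover counting error only, since PCR reads without molecular identifiers are not independent molecules. Sampling noise was read from a chi-square per degree of freedom.

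Sites named are the 10 highest of each table, the 3 highest of each strand, the 5 highest in CAGE, those that passed the share test and those tested but not called. Start sites at 14258 plus, 13402 minus and 17256 minus were named after their values were seen. So were poly(A) sites at 4717 and 13643 minus, start and poly(A) pairs, and the share of 639 minus. Alternatives were DESeq2 1.42.0, size factors by RLE or by library totals alone, no filter, other share forms, a replicate block and leaving out each library. Same-numbered animals of the 2 sexes are different animals, and their deviations did not correlate together (−0.202 to 0.114), so numbers were not used as pairs. Shares and figures were made with scipy 1.17.1, pandas 2.3.3, numpy 2.4.6 and matplotlib 3.10.9 in Python 3.11.15.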

Additional observations from a re-analysis of the deposited data

Results flagged for a closer look

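Chance marks about 1 in 20 groups of 6 as holding a sample far from the others. Many groups were checked, each sex at each site named by rule in both tables, so some marks arise by chance alone. The number of marks was not tested against that rate. Female 5 stood apart from the other females in its share of mitochondrial start counts at 5 plus-strand sites. Its share was 8.23% at 3438 (next 1.90%), 5.08% at 6785 (next 1.91%), 14.5% at 7113 (next 6.40%), 5.20% at 11276 (next 1.11%) and 7.31% at 14955 (next 2.71%). These shares belong to the library in which 1487 minus was low, and shares of a total move together. In CPM, too, female 5 was the highest female at each of these 5 sites. It had 345 CPM at 3438 (next 151), 213 at 6785 (next 152) and 609 at 7113 (next 455). At 11276 it had 218 CPM (next 63.5) and at 14955 it had 306 (next 212). The cause was not tested. Among males, the first library headed Male4 held 0.980% at 639 minus (next 0.306%). Among poly(A) sites, a single library stood apart at 2736 minus in females (0.183%, next 0.0624%), at 13837 minus in males (0.267%, next 0.112%) and at 15498 minus in males (0.311%, next 0.149%).

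The deposited poly(A) table holds a total per site that exceeds the sum of its 12 listed libraries, by 63368185 counts over all sites. Of these further counts 5.79% were mitochondrial, against 1.59% in the listed libraries. Their minus strand held 1.28% of the mitochondrial counts, against 3.54% in the listed libraries. No label says which libraries they come from, and they entered no comparison.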

How the results depend on the processing

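Of 147 recomputed group values, 137 were counted as unchanged, while 2 reversed, 6 became stronger and 2 weaker. For a tested difference, unchanged meant the same direction and the same side of the threshold. For a number of sites that passed, it meant only a similar number. Of 474 values of single sites 447 kept their direction and their side of the threshold, while 20 reversed, 5 became stronger and 2 weaker. With no count filter 37 of 45 start sites were higher in males, against 17635 of 68779 over all start sites. For poly(A) sites it was 21 of 43, against 15342 of 98277 over all poly(A) sites. Leaving out 1 library gave 22 to 26 higher start sites of 26 to 29 tested, against 5272 to 6397 of 16163 to 18235 over all start sites. It gave 11 to 12 higher poly(A) sites of 13 to 14 tested, against 4073 to 5090 of 17840 to 19047 over all poly(A) sites. The start share difference was then 1.42 to 1.90 and the poly(A) share difference 1.86 to 2.14 percentage points. Start strand differences were −31.3 to −22.4, and poly(A) strand differences −1.16 to −0.32. With 1 library left out, 10 to 14 start sites and 0 to 1 poly(A) sites had a share that passed. The 1 arose without male 2 and without male 5. The assay difference was 0.25 to 0.89. The minus-strand difference among start sites was −0.77 without 1487 minus. Among poly(A) sites it was −10.4 without 1237 plus and 0.0199 without 17064 minus. Without 1237 plus, 1 site's share passed, that of 17064 minus, which was lower in males. Leaving out the highest minus-strand site was chosen after seeing the data. Without 1598 plus the CAGE difference from the mean of the repeats was −0.0363 percentage points, against 0.63 with it. The cause of these was not tested.

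Replicate numbers were used as a block only as an alternative. The replicate block with 3 pairs gave a start share difference of 1.55 (exact sign-flip permutation p = 0.25, the smallest possible). It gave 24 of 27 start sites higher in males, against 5871 of 19920 over all start sites. Without the block the same libraries gave 25 of 27, against 6468 of 19920. With 6 pairs the block gave 11 of 13 poly(A) sites, against 3892 of 16429 over all poly(A) sites. With the block the log2 fold change was 1.21 at 1598 plus and 2.42 at 1487 minus, past the threshold, against 1.19 and 2.15 without the block in the same libraries. It was 0.69 at 298 plus, against 0.63, and −0.11 at 639 minus. Library totals alone moved the median of all sites by −0.66 for start and −1.25 for poly(A) sites. They left 22 of 26 start sites higher in males, against 4038 of 15050 over all start sites. For poly(A) sites they left 9 of 13, against 2627 of 16429. RLE factors moved the median by 0.12 for start sites. At 298 plus the log2 fold change was −0.71 with library totals and −0.26 with no filter. It was 0.0590 with RLE factors, 0.0592 with DESeq2, and −0.41 to 0.66 with 1 library left out. At 639 minus it was −0.83 with library totals, −0.39 with no filter and −1.57 to 1.38 with 1 library left out. At 1487 minus it was −0.13 with library totals. Depth limits the 19 start and 30 poly(A) sites that were too low to test.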

Other observations

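Over the 6 females, the mitochondrial share of start counts and that of poly(A) counts in the same animal had a Pearson r of −0.441 (exact permutation p = 0.392) and a Spearman rho of −0.371 (exact permutation p = 0.497; adjusted over both, 0.497 each). Without the 2 females farthest from the median start share, r was −0.649. In the total beyond the listed libraries, the share of a poly(A) site's deposited total was 85.0% at 1237 plus and 3.28% at 9187 plus.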
